A study of Mus musculus and Homo sapiens with 65 samples.

Results

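Aminoacyl-tRNA synthetases are the enzymes that join each amino acid to its transfer RNA. The mRNA of 35 of their genes was followed in mouse embryos at the late 2-cell stage, across 9 RNA-seq libraries. The genes were taken by symbol from the deposited gene tables, which list 32287 genes, and all 35 symbols were found. Of these, 20 encode cytosolic enzymes and 15, whose symbols end in 2, encode mitochondrial enzymes. The series holds 65 samples, of which these 9 libraries were analysed here. There were 3 libraries of untreated wild-type embryos and 2 of embryos treated with alpha-amanitin, a toxin that blocks RNA polymerase II; the labels used here give neither dose nor timing. A further 2 libraries came from embryos injected as zygotes, 0.5 days after conception, with fluorescein-tagged morpholinos against Kdm5a and Kdm5b together. The last 2 came from embryos injected at the same time with mismatch control morpholinos, 23 bases long with 5 bases changed against each target. Embryos of all groups were cultured to the late 2-cell stage; the labels give no strain and no age of the animals.

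Each synthetase recognises 1 amino acid and the matching transfer RNAs, activates the amino acid with ATP and transfers it to the end of the transfer RNA, which then enters the ribosome. The enzymes fall into class I and class II, which have unrelated catalytic folds. Several cytosolic enzymes of mammals are held in the multi-synthetase complex, and mitochondria use nuclear-encoded enzymes of their own, which are imported. Gars and Kars each serve both the cytosol and the mitochondria, Eprs joins the glutamyl and prolyl enzymes in 1 polypeptide, and Farsa and Farsb encode the subunits of the cytosolic phenylalanyl enzyme. The late 2-cell stage of the mouse follows the main onset of zygotic transcription and overlaps the decay of maternal RNA, so a message at this stage can come from either source.

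Levels are FPKM, the fragments of a gene scaled by the length of its transcript and by the total fragments of its library, as the authors deposited them. A level is therefore a share of that library's RNA, and the number of reads is unknown. The libraries were bulk, so fewer cells carrying an mRNA and less mRNA per cell cannot be told apart. With alpha-amanitin 7977 and 7935 genes reached 1 FPKM, against 10611 to 11228 in each library of the other groups. Oocyte and 2-cell embryo markers were present, 7 of 8 reaching 1 FPKM. With alpha-amanitin they moved in both directions: the 2-cell markers Zfp352, Tdpoz1 and Zscan4c fell, from wild-type means of 90.2, 40.6 and 6.45 FPKM to 3.05, 0.181 and 0.0293 or less, and the oocyte growth factor Bmp15 rose from a mean of 200.5 to 475.1. The other tested oocyte markers, Zp3, Gdf9 and Nlrp5, had log2 changes of 0.01, 0.32 and 0.43, which limma did not call at an adjusted p of 0.05. Cumulus cell markers summed to at most 3.93 in any library, sperm markers to at most 5.96, blood markers to at most 5.42 and oviduct markers to at most 8.47. Ereg, Prm1, Hbb-bs and Hbb-bt, which mark the first 3 of these cell types, were listed at 0 throughout. Other markers were higher in single libraries. Of sperm, Tnp1 reached 5.44 in wild-type replicate 3, and Odf1 4.21 in wild-type replicate 2 and 3.31 in alpha-amanitin replicate 2. Of blood, Hba-a1 reached 4.62 in wild-type replicate 1 and Lyz2 3.15 in alpha-amanitin replicate 1. Of the oviduct, Ovgp1 reached 7.83 in Kdm5a+b replicate 1. Whether such cells were present was not tested. Kdm5a lay at 12.8 and 9.44 in the controls and at 19.5 and 15.3 in the Kdm5a+b libraries, and Kdm5b at 55.3 and 39.6 against 38.1 and 27.6; how each morpholino acts on its target is not stated in the labels, and these mRNA levels do not check the labels where it blocks translation.

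Promoter sequence is shown for the members that carry a motif known from amino acid limitation. Genes for several cytosolic synthetases are known targets of the transcription factor ATF4, which binds an element of the form TGATGNAA. The RefSeq windows of build GRCm38.p6, from 250 bases before to 50 bases after a start site, were searched for it on both strands; on the opposite strand it reads TTNCATCA. Of the 20 cytosolic members 13 had a window, and 5 of these (38.5%) held the motif. Of the 15 mitochondrial members 14 had a window, and 0 held it. Among all 27025 genes with a window of this length, counted in the same way, 4.51% held the motif, and among all 32851 windows 3.97%. There were 6 matches, 2 of them in Aars. Those of the other 4 genes follow, each in 30 bases on the strand of the gene, with the motif in capitals.
Gars, chr6:55037960-55037989, plus strand: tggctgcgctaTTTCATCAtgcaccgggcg
Iars, chr13:49682126-49682155, plus strand: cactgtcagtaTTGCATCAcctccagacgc
Tars, chr15:11399655-11399684, minus strand: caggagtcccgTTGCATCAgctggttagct
Yars, chr4:129189895-129189924, plus strand: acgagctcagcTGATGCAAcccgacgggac
In Aars the matches began 112 bases before the start site and at base 10 of the transcript. They began 30 bases before the start in Gars and 15 bases before it in Tars, at base 8 of the transcript in Iars and at base 4 in Yars. A match describes the letters of the window and does not show that a factor binds there. The windows of Dars, Eprs, Farsa, Farsb, Kars, Mars, Qars and Sars did not hold these letters, and Cars, Hars, Lars, Nars, Rars, Vars, Wars and Hars2 had no entry.

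In wild-type embryos the most abundant cytosolic messages were those of members of the multi-synthetase complex, with Nars between them. Qars, the glutaminyl enzyme (chr9:108508005-108515941, build mm10 for this and later gene positions), stood at 21.7, 90.2 and 35.8 FPKM in the 3 libraries, a mean of 49.2 ± 36.2 (SD, n = 3). Rars, the arginyl enzyme (chr11:35808381-35834506), stood at 25.4, 54.3 and 34.7 FPKM, a mean of 38.1 ± 14.8 (SD, n = 3). Kars, the lysyl enzyme (chr8:111993440-112011323), stood at 8.73, 39.0 and 26.7 FPKM. Replicate 2 was the highest for each of these 3 genes and replicate 1 the lowest. Nars, the asparaginyl enzyme, stood at 16.02, 22.9 and 19.8 FPKM, and Iars, the isoleucyl enzyme (chr13:49682100-49734267), at 15.7, 21.4 and 21.6. Neighbours in this order overlapped, so their order does not exceed the spread between libraries, whereas every library of Rars was above every library of Nars and Iars. By mean level, Qars ranked 920 and Rars 1265 among the 32287 genes.

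The other cytosolic members covered a wide range. Mars, the methionyl enzyme, had a wild-type mean of 17.7 ± 3.86 FPKM, Aars, the alanyl enzyme, 17.6 ± 15.4, and Farsb, the beta subunit of the phenylalanyl enzyme, 13.4 ± 3.34 (SD, n = 3 each). Hars (histidyl), Yars (tyrosyl), Eprs, Sars (seryl), Wars (tryptophanyl), Farsa and Gars (glycyl) had means from 9.91 down to 3.55 FPKM. Vars (valyl), Dars (aspartyl) and Tars (threonyl) had means of 2.24, 2.10 and 1.29 FPKM. Cars, the cysteinyl enzyme, lay between 0.695 and 1.37 FPKM, and Lars, the leucyl enzyme, at 0.601, 0.0371 and 0.0933, the lowest of the 20. The subunits Farsa and Farsb, which form 1 enzyme, differed in level in every wild-type library, with Farsb at 14.6, 9.57 and 15.9 FPKM and Farsa at 2.78, 2.92 and 5.61. The plot of levels by library shows this order together with the other groups.

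**Figure D1:**
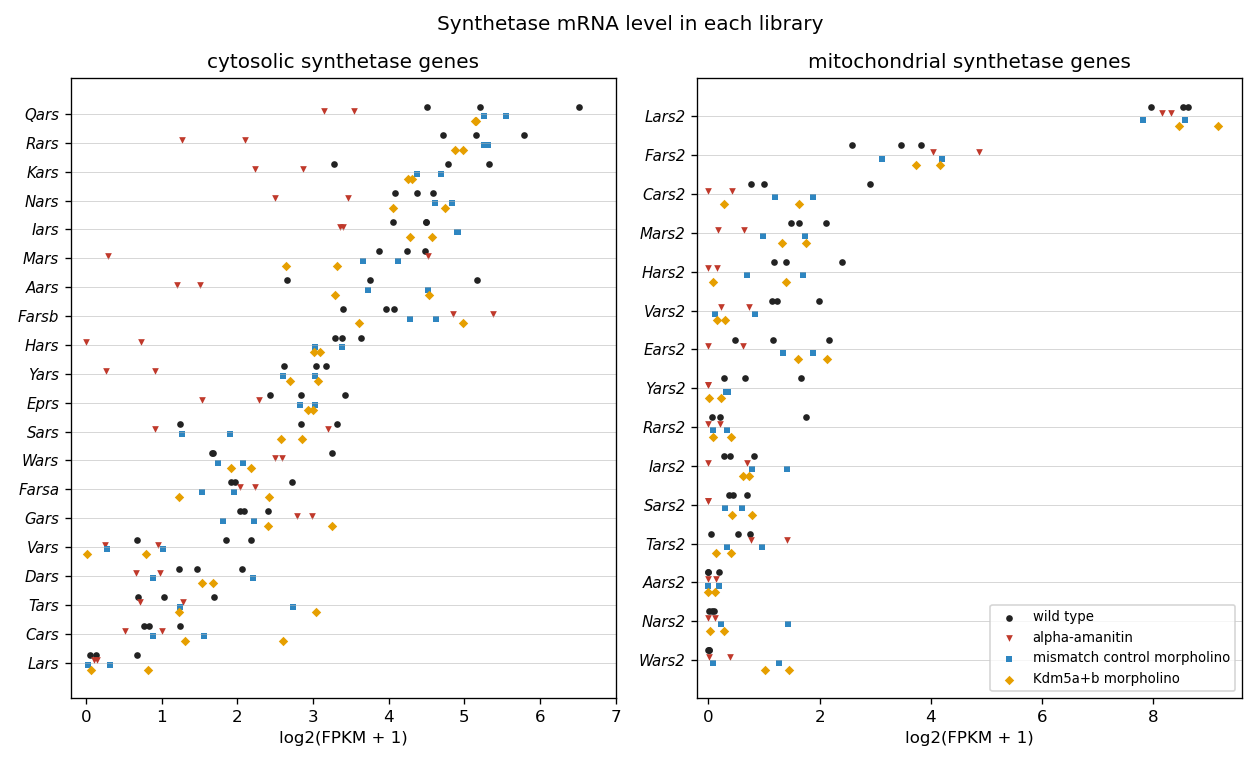
Level of each of the 35 genes in each of the 9 libraries, as log2(FPKM + 1), with cytosolic members on the left and mitochondrial members on the right, ordered by wild-type mean. Points are single libraries: wild type (3), alpha-amanitin (2), mismatch control morpholino (2) and Kdm5a+b morpholino (2). Qars heads the cytosolic members and Lars2 the mitochondrial ones, and the alpha-amanitin points of Rars, Hars and Yars lie left of those of every other group.

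Among the mitochondrial members, Lars2 stood apart. Lars2, the mitochondrial leucyl enzyme (chr9:123366940-123462664), was at 396, 247 and 370 FPKM in wild type, a mean of 338 ± 79.4 (SD, n = 3), and ranked 33 among the 32287 genes. Near the end of its transcript, 72 bases matched the antisense transcript Gm15564 at 98.6% identity. Gm15564 was at 2.87, 6.53 and 2.42 FPKM in wild type, and what these bases contribute to the level of Lars2 was not tested. Fars2, the mitochondrial phenylalanyl enzyme (chr13:36117411-36537592), followed at 13.2, 10.1 and 4.99 FPKM. Cars2 (cysteinyl) was at 0.706, 0.998 and 6.49 FPKM, so its mean of 2.73 rests on replicate 3. Mars2 (methionyl) was at 1.80, 2.11 and 3.35 FPKM, and Hars2 (histidyl) at 4.26, 1.26 and 1.64. These 3 genes, Vars2 (valyl) and Ears2 (glutamyl) had means between 1.70 and 2.73 FPKM that their libraries did not separate. Yars2 (tyrosyl), Rars2 (arginyl), Iars2 (isoleucyl), Sars2 (seryl), Tars2 (threonyl), Aars2 (alanyl), Nars2 (asparaginyl) and Wars2 (tryptophanyl) had means below 1 FPKM, from 0.988 down to 0.00321.

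Leaving Lars2 aside, cytosolic messages were the more abundant. The wild-type mean was 1 FPKM or more in 18 of 20 cytosolic and 7 of 15 mitochondrial members, Lars2 included. It was 10 FPKM or more in 8 and 1, the 1 being Lars2. The median over cytosolic members was 5.73 to 9.19 FPKM in the wild-type libraries. Over mitochondrial members it was 0.392 to 0.762 with Lars2 and 0.379 to 0.723 without it. For 15 amino acids both a cytosolic and a mitochondrial gene were among the members. The cytosolic gene was the higher of the pair in 13, 12 and 13 of 15 pairs in the 3 wild-type libraries. In 9 pairs, those of Aars, Eprs, Iars, Mars, Nars, Rars, Sars, Wars and Yars, it was higher in all 9 libraries. The leucine pair ran the other way in all 9 libraries, and the phenylalanine pair, set as Farsa against Fars2, in 8 of 9. In the cysteine, threonine, histidine and valine pairs the cytosolic gene was higher in 7, 8, 8 and 5 libraries.

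**Figure D2:**
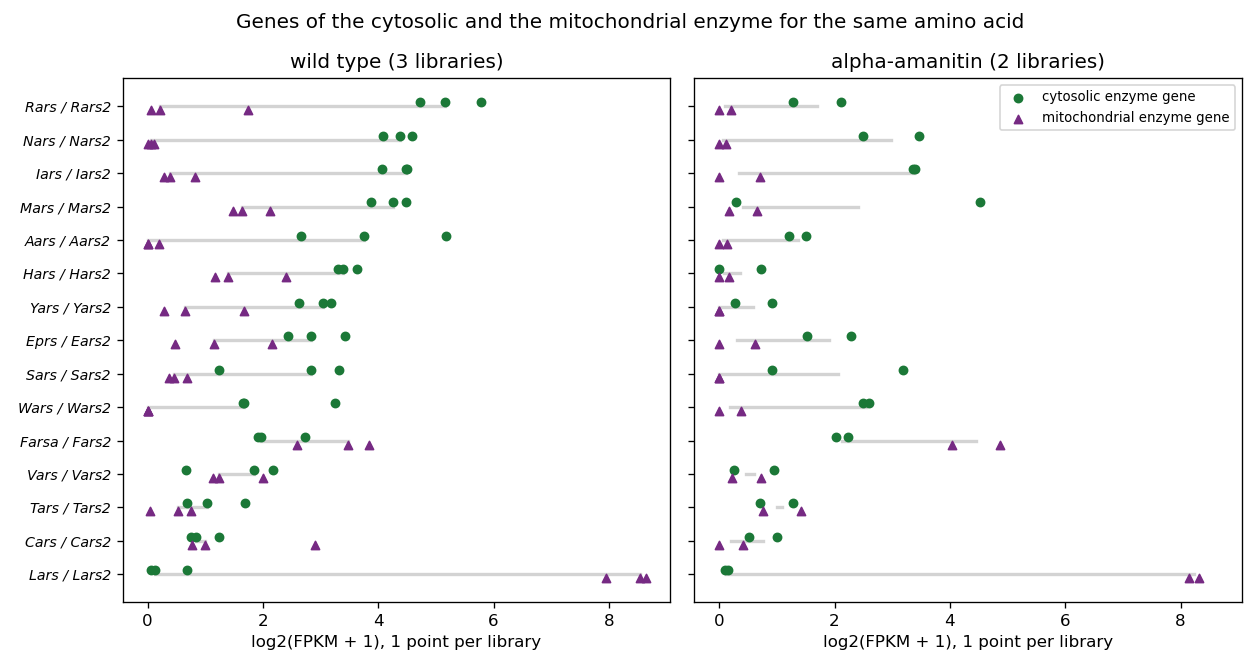
Level of the cytosolic (green circles) and mitochondrial (purple triangles) gene for each of 15 amino acids, as log2(FPKM + 1), in the 3 wild-type libraries on the left and the 2 alpha-amanitin libraries on the right; each point is 1 library and a grey bar joins the medians. The leucine pair is reversed, with Lars2 at 247 FPKM or more and Lars at 0.601 or less in wild type.

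The comparison of alpha-amanitin with wild type asks which messages need transcription by the embryo to reach their late 2-cell level. With transcription blocked, 8 synthetase messages fell and 1 rose, as shares of the library. Those that fell were Rars, Hars, Aars, Yars, Qars, Kars, Nars and Iars, all cytosolic, and Farsb rose. The test was limma on log2(FPKM + 1), with p adjusted over the 13137 genes with 1 FPKM or more in at least 2 libraries and a threshold of 0.05. It covered 27 of the 35 members, 19 cytosolic and 8 mitochondrial; Lars, Aars2, Iars2, Nars2, Rars2, Sars2, Tars2 and Yars2 were below that filter. The share of tested members that fell, 29.6%, stood near the 25.1% of all genes tested, and the share that rose was 3.70% against 4.31%. The median log2 change was -0.97 over the members and -0.56 over all genes tested. With quantile normalization, which gives every library the same distribution, the median of all genes moved to 0.17 and that of the members to -0.25. Then 2 members fell (Rars and Hars) and 3 rose (Farsb, Gars and Fars2), and over all genes 1806 fell and 1716 rose in place of 3299 and 566. The summed level of 6 cumulus cell markers was 1.69 to 3.93 FPKM in wild type and 0.234 and 0.357 with alpha-amanitin. Tnfaip6 alone reached 1 FPKM and carried most of this difference. It was at 3.42, 1.68 and 1.67 FPKM in wild type and 0 and 0.130 with alpha-amanitin, a fall that passed the threshold (limma adjusted p = 0.0456). Areg, at 0.485 FPKM in wild-type replicate 1, was at 0 in both alpha-amanitin libraries. Has2 and Ptgs2 had higher means with alpha-amanitin, of 0.0842 and 0.146 FPKM, and Ereg was at 0. The part of such cells in these results was not tested. With FPKM as deposited, values of the groups did not overlap in 14 members that were lower (41.1% of all genes tested) and 3 that were higher (13.4%).

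**Figure D3:**
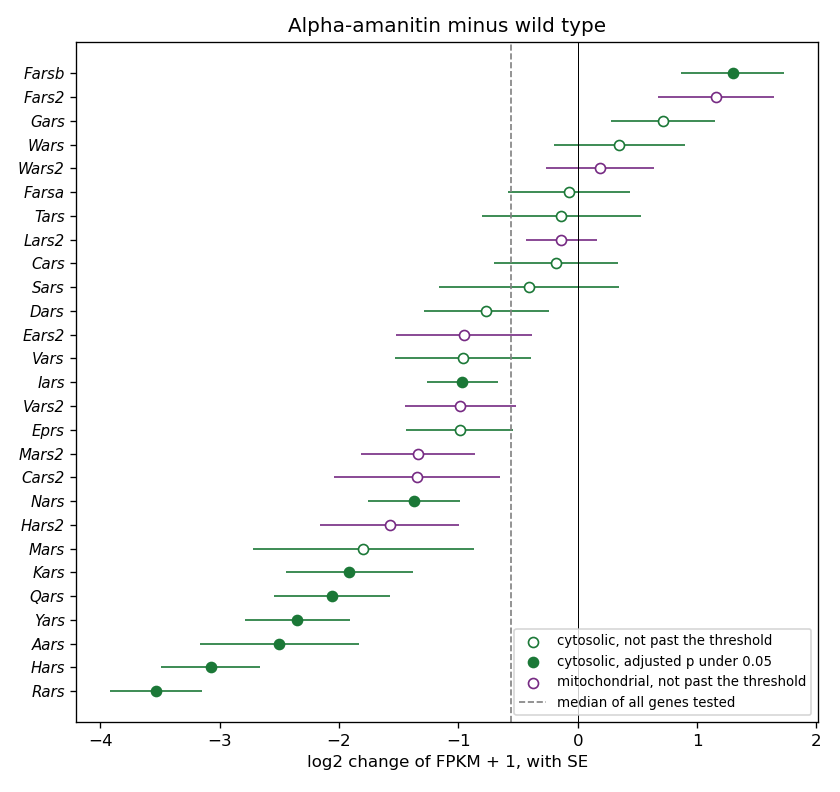
Log2 change of FPKM + 1 between alpha-amanitin (2 libraries) and wild type (3 libraries) for the 27 tested members, with bars of 1 SE from limma. Filled points passed an adjusted p of 0.05, green is cytosolic and purple mitochondrial, and the dashed line is the median of all genes tested, -0.56. All 8 filled points on the left are cytosolic, from Rars at -3.53 to Iars at -0.97, and Farsb at 1.30 is the filled point on the right.

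Rars and Hars, the arginyl and histidyl enzymes, fell the most. Rars went from 25.4, 54.3 and 34.7 FPKM in wild type to 3.30 and 1.42 with alpha-amanitin. Wild type was thus 16.2-fold higher by the means, and the log2 change was -3.53 ± 0.38 (SE; limma adjusted p = 7.23e-05). Hars went from 8.82, 9.46 and 11.4 FPKM to 0 and 0.655, a log2 change of -3.08 ± 0.41 (SE; limma adjusted p = 0.000306). No library of either gene came near the other group. These calls held under quantile normalization and without any library in turn. The first 195 bases of the Hars transcript overlap Hars2 on the opposite strand; whether counting used strand is not stated in the labels.

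Yars and Aars, the tyrosyl and alanyl enzymes, came next and lie outside the complex. Yars (chr4:129189760-129219607) went from 8.02, 5.15 and 7.21 FPKM to 0.205 and 0.887, a log2 change of -2.35 ± 0.44 (SE; limma adjusted p = 0.0025). Aars (chr8:111033144-111057664) went from 5.31, 34.9 and 12.52 FPKM to 1.31 and 1.85, a log2 change of -2.50 ± 0.67 (SE; limma adjusted p = 0.017). The groups did not overlap in either gene, though the wild-type libraries of Aars spanned 6.57-fold. The call of Yars held without any library in turn, and missed the threshold under quantile normalization (limma adjusted p = 0.0571). The call of Aars was lost without either alpha-amanitin library (limma adjusted p = 0.0823 without replicate 1 and 0.0563 without replicate 2). The end of an Aars transcript shares 1326 bases with Exosc6 on the same strand.

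In the complex, 4 of 7 tested members fell (57.1%, against 25.1% of all genes tested), Rars among them, with a median log2 change of -1.80 over the 7. With quantile normalization 1 of the 7 fell, Rars. Of the 12 cytosolic members outside it, 4 fell (33.3%) and 1 rose (8.33%, against 4.31% of all genes tested), with a median of -0.30. With quantile normalization the medians were -1.05 in the complex and 0.70 outside it, against 0.17 over all genes tested. Whether the sets differ was not tested. Qars went from 21.7, 90.2 and 35.8 FPKM to 7.83 and 10.7, a log2 change of -2.06 ± 0.49 (SE; limma adjusted p = 0.00914). Kars went from 8.73, 39.0 and 26.7 FPKM to 6.32 and 3.70, a log2 change of -1.91 ± 0.53 (SE; limma adjusted p = 0.0204). These are the most abundant and the third most abundant cytosolic messages of wild type. Iars went from 15.7, 21.4 and 21.6 FPKM to 9.28 and 9.57, a log2 change of -0.97 ± 0.30 (SE; limma adjusted p = 0.0343). Nars, outside the complex, went from 16.02, 22.9 and 19.8 FPKM to 10.03 and 4.65, a log2 change of -1.37 ± 0.39 (SE; limma adjusted p = 0.0217). None of these 4 genes had an alpha-amanitin library inside its wild-type range. Their calls rest on single libraries. Qars lost its call without alpha-amanitin replicate 1 (limma adjusted p = 0.0604), and Kars and Nars without wild-type replicate 2 or 3 or alpha-amanitin replicate 2 (0.0534 to 0.173). Iars lost it without any of wild-type replicates 2 and 3, either alpha-amanitin library or either Kdm5a+b library (0.0508 to 0.108). Iars also shares 1656 bases at 96.0% identity with its pseudogene Gm4849, listed at 15.8, 40.8 and 24.7 FPKM without treatment and 14.0 and 16.6 with alpha-amanitin, so reads could have been split between them.

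Mars, the methionyl enzyme of the complex, had alpha-amanitin libraries that lay far apart. The wild-type libraries held 13.7, 18.0 and 21.3 FPKM, those with alpha-amanitin 0.222 and 21.9. Replicate 1 was far below the wild-type range and replicate 2 above it. The log2 change of -1.80 ± 0.92 (SE) missed the threshold (limma adjusted p = 0.172). Without alpha-amanitin replicate 1 it was 0.32, and without replicate 2 it was -3.91 (limma adjusted p = 0.000477). Eprs and Dars, also of the complex, had log2 changes of -0.99 ± 0.45 and -0.76 ± 0.53 (SE) and missed the threshold (limma adjusted p = 0.124 and 0.303).

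Farsb was the member that rose. It went from 14.6, 9.57 and 15.9 FPKM in wild type to 40.6 and 27.7 with alpha-amanitin, 2.56-fold higher by the means, with a log2 change of 1.30 ± 0.43 (SE; limma adjusted p = 0.0449). Both alpha-amanitin libraries were above every wild-type library. The call was lost without any of the 3 wild-type, 2 alpha-amanitin or 2 control libraries (limma adjusted p = 0.0611 to 0.22). Farsa, its partner subunit, stood at 2.78, 2.92 and 5.61 FPKM and then 3.08 and 3.71, a log2 change of -0.07 ± 0.51 (SE) that missed the threshold (limma adjusted p = 0.929). Gars, the glycyl enzyme, stood at 3.11, 3.23 and 4.29 FPKM and then 5.91 and 6.96, without overlap, but its log2 change of 0.72 ± 0.44 (SE) also missed it (limma adjusted p = 0.248). Wars, Tars, Cars, Sars and Vars had log2 changes of 0.35, -0.14, -0.18, -0.41 and -0.96 and were not called, and the alpha-amanitin libraries of Sars were 0.888 and 8.15 FPKM.

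No mitochondrial member passed the threshold with limma, against 8 of 19 cytosolic members that fell (42.1%, against 25.1% of all genes tested); with quantile normalization 2 cytosolic members fell. Of the mitochondrial members, 3 of the 8 tested had an unadjusted p under 0.05, as did 40.4% of all genes tested. The difference between the compartments was not tested, and the median log2 change was -0.97 in each. With quantile normalization the median was 0.05 over cytosolic and -0.26 over mitochondrial members, against 0.17 over all genes tested. Lars2 was at 284 and 318 FPKM with alpha-amanitin, both inside its wild-type range of 247 to 396, with a log2 change of -0.14 ± 0.30 (SE; limma adjusted p = 0.755). Hars2 was at 0.119 and 0 FPKM against 4.26, 1.26 and 1.64, a log2 change of -1.58 ± 0.58 (SE; limma adjusted p = 0.0649). Mars2 was at 0.123 and 0.567 FPKM against 1.80, 2.11 and 3.35, a log2 change of -1.34 ± 0.48 (SE; limma adjusted p = 0.0572). Groups did not overlap in Hars2 and Mars2, and both passed the threshold with a pseudocount of 0.1 in place of 1 (limma adjusted p = 0.0328 and 0.0304). Fars2 was at 15.4 and 28.2 FPKM against 13.2, 10.1 and 4.99, a log2 change of 1.16 ± 0.49 (SE; limma adjusted p = 0.101). Cars2, Ears2, Vars2 and Wars2 had log2 changes of -1.35, -0.95, -0.98 and 0.19 and were not called; Cars2 was at 0.336 and 0 FPKM with alpha-amanitin. Among members too low to be tested, Sars2 and Yars2 were listed at 0 in both alpha-amanitin libraries, with at most 0.612 and 2.18 FPKM in wild type.

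Summed over the 20 cytosolic members, the level was 165 to 337 FPKM in wild type and 99.2 and 113 with alpha-amanitin, without overlap. Over the mitochondrial members without Lars2 it was 19.4 to 27.97 and 18.5 and 31.2, with overlap. Fars2 made up 15.4 of the 18.5 and 28.2 of the 31.2 with alpha-amanitin, and was at 13.2, 10.1 and 4.99 in wild type. The median over these mitochondrial members was 0.379 to 0.723 FPKM in wild type and 0.141 and 0.000424 with alpha-amanitin. By catalytic class, 4 of 14 tested class I members fell (Iars, Qars, Rars and Yars; 28.6%), as did 4 of 12 class II members (Aars, Hars, Kars and Nars; 33.3%), both near the 25.1% of all genes tested, and Farsb, which rose, is class II. Of the 5 genes with the ATF4-type motif described above, Aars, Iars and Yars fell, while Gars and Tars were not called, too few genes to read against the same 25.1%. Of the 8 cytosolic genes whose window lacked it, Kars and Qars fell and Farsb rose.

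Genes that work next to the synthetases were counted in the same comparison, and with FPKM as deposited no gene of these lists passed the threshold upward. Of the charging partners, which include scaffold and transamidation proteins, 4 of 13 tested genes fell (30.8%, against 25.1% of all genes tested). Aimp2, a scaffold protein of the multi-synthetase complex, went from 18.4, 26.99 and 19.4 FPKM to 3.18e-10 and 4.07e-42, a log2 change of -4.48. Eef1e1, another complex protein, went from 3.81, 6.22 and 3.91 FPKM to 0.193 and 0.496. The scaffold gene Aimp1 was at 0.398 FPKM or less in every library. Of 20 tested rows for tRNA maturation, 9 fell (45.0%), with a median log2 change of -1.51, led by Rpp25, a protein of RNase P (-4.64), the RNA kinase Clp1 (-4.30) and Rpp40, also of RNase P (-3.74). Rpp14 holds 2 of these rows. Of 8 elongation and termination factors of the cytosol, 3 fell (37.5%), namely Eef2 (-2.02), the release factor Gspt1 (-1.68) and Eef1b2 (-1.18). Of 7 mitochondrial translation factors 1 fell (14.3%), the release factor Mtrf1l (-2.18). The medians of the charging partners, cytosolic factors and mitochondrial factors were -0.92, -1.14 and -0.27. With quantile normalization, 2 charging partners fell and 1 rose, 4 rows for tRNA maturation and 1 cytosolic factor fell, and 1 mitochondrial factor rose.

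Genes of the amino acid response, the ATF4 programme to which several synthetases belong, had 5 of 19 tested members that fell (26.3%, against 25.1% of all genes tested) and a median log2 change of -1.14. Sesn2, a leucine sensor, had the largest change, from 66.5, 52.4 and 57.6 FPKM to 0.190 and 0.126 (log2 change -5.69). Psat1, of serine synthesis, went from 49.4, 105 and 140 FPKM to 1.66 and 0.418 (-5.55), and Trib3, a stress-induced pseudokinase, from 13.0, 6.605 and 13.4 to 0 in both (-3.53). Atf4 itself and Ddit4 also fell. With quantile normalization 5 genes of this list fell and 2 rose. Asns, asparagine synthetase and a well-known ATF4 target, was at 0.0171 FPKM or less in wild type.

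Embryos injected with morpholinos against the histone demethylases Kdm5a and Kdm5b were compared with the mismatch controls, to ask which genes depend on these enzymes; the protein was not measured in these files. No synthetase message was called. Across all 13137 genes limma called 0, and 414 (3.15%) had an unadjusted p under 0.05; among the 27 tested members 0 had one. Called genes were 0% of those tested in each direction. The members' median log2 change was 0.04, with 13 below 0 and 14 above. A miss of the threshold does not show that the levels were equal, since 2 libraries stood against 2.

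The 4 members with the smallest unadjusted p were Lars2, Gars, Iars and Sars. Lars2 was at 379 and 226 FPKM in the controls and 578 and 355 in the Kdm5a+b libraries, a log2 change of 0.63 ± 0.32 (SE; unadjusted p = 0.0798), with overlap. Gars was at 3.67 and 2.52 against 8.52 and 4.32 FPKM, a log2 change of 0.81 ± 0.48 (SE). Iars was at 29.2 and 28.9 against 18.5 and 22.9 FPKM, a log2 change of -0.48 ± 0.33 (SE). Sars, which charges serine and lies outside the complex, also ranked here. It was at 2.76 and 1.42 against 4.98 and 6.25 FPKM, a log2 change of 1.13 ± 0.83 (SE). Gars and Sars were higher without overlap and Iars lower without overlap. In all, 5 of 27 members were lower without overlap, near the 16.8% of all genes tested. A further 2 of 27 were higher without overlap, a smaller share than the 16.5% of all genes tested. The 5 were Iars, Kars, Mars, Qars and Rars, which are 5 of the 7 tested members of the multi-synthetase complex, against 16.8% of all genes tested. The other tested members of the complex, Dars and Eprs, had log2 changes of 0.06 and 0.04. No test was made of the complex as a set. Mars was at 11.6 and 16.5 FPKM in the controls and 5.26 and 8.94 in the Kdm5a+b libraries, Rars at 37.4 and 38.9 against 30.6 and 28.3, Qars at 45.8 and 37.4 against 34.5 and 34.6, and Kars at 24.9 and 19.8 against 18.8 and 18.1. With limma the adjusted p of each was 1. In wild type Rars ran from 25.4 to 54.3 FPKM, Qars from 21.7 to 90.2 and Kars from 8.73 to 39.0. The Kdm5a+b values of Rars, Qars and Kars lay inside those ranges. Those of Mars lay below its lowest wild-type value, 13.7. For Iars the controls themselves were above its highest wild-type value, 21.6. No gene of the partner, elongation, maturation or amino acid response lists was called either.

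**Figure D4:**
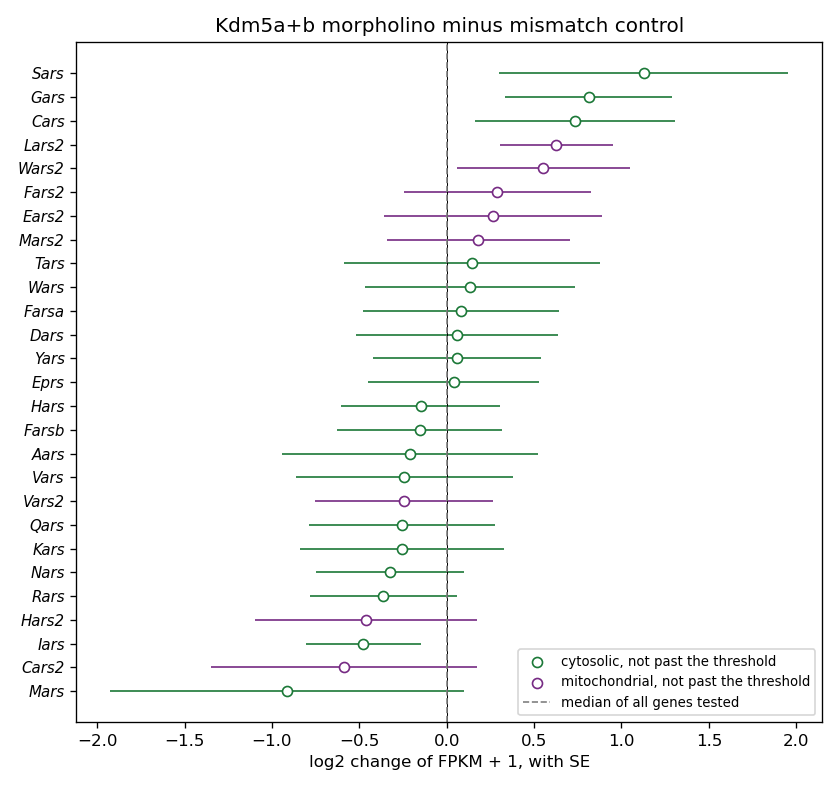
Log2 change of FPKM + 1 between Kdm5a+b morpholino (2 libraries) and mismatch control (2 libraries) for the 27 tested members, with bars of 1 SE from limma. Open points did not pass an adjusted p of 0.05, which holds for all 27, and the dashed line at the median of all genes tested lies on 0. Changes run from -0.91 in Mars to 1.13 in Sars.

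Injected controls were compared with untreated embryos to see what injection and culture with a mismatch morpholino changed. Both this comparison and that with alpha-amanitin use the 3 wild-type libraries, and the Kdm5a+b comparison uses the same controls, so their values are not independent. Again no synthetase message was called; limma called 0 of 13137 genes (0% in each direction), with 616 (4.69%) at an unadjusted p under 0.05, and 0 of the 27 members had one. The median log2 change of the members was -0.02. The smallest unadjusted p belonged to Vars2, at 2.98, 1.36 and 1.20 FPKM in wild type and 0.783 and 0.07875 in the controls, a log2 change of -0.98 ± 0.47 (SE; unadjusted p = 0.0593). Iars was at 15.7, 21.4 and 21.6 FPKM and then 29.2 and 28.9, a log2 change of 0.56 ± 0.30 (SE). Vars, like Vars2, charges valine. It was at 3.54, 0.588 and 2.59 FPKM and then 0.211 and 1.02, a log2 change of -0.92 ± 0.57 (SE). Wars2 was at 0.00156, 0 and 0.00808 FPKM and then 0.0596 and 1.41, a log2 change of 0.67 ± 0.45 (SE). Groups did not overlap in Vars2, Iars and Wars2 but did in Vars. Wars2 passed the filter only through injected libraries, so its place here is no support for a difference from wild type. In all, 1 member was lower and 4, Wars2 among them, were higher without overlap, against 8.85% and 9.26% of all genes tested.

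Wars2, the mitochondrial tryptophanyl enzyme, reached 1 FPKM in 3 of the 4 injected libraries and in none of the other 5. It was at 1.02 and 1.72 FPKM in the Kdm5a+b libraries and at 0.303 and 0.000847 with alpha-amanitin. Control replicate 1, at 0.0596, lay below alpha-amanitin replicate 1, so the injected libraries did not all share this level. Lars, Aars2, Nars2, Rars2, Sars2, Tars2 and Yars2 stayed at or below 1.69 FPKM in the injected libraries, as did Iars2.

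Several members share sequence with another gene in the annotation, and what this contributes to their levels was not tested. A match of 70 or more bases at 95% identity or more to a transcript of another gene was found for 13 of the 35 members. Apart from those of Lars2, Iars and Aars, these were matches in opposite orientation, that between Hars and Hars2 included. Farsb matched Sgpp2 over 250 bases, Fars2 Lyrm4 over 115, Ears2 Ubfd1 over 89 and Cars Gm15580 over 214. Cars2 matched Naxd over 217, Iars2 Rab3gap2 over 2034, Nars2 C230038L03Rik over 284 and Vars2 Gm20483 over 130. The genomic positions of these pairs were not compared. Reads from the matching stretches cannot be told apart without strand. Sgpp2, the match of Farsb, was at 1.59 FPKM or less in wild type and at 0.179 or less with alpha-amanitin, the group in which Farsb was highest. Lyrm4 was at 28.5, 18.9 and 17.2 FPKM in wild type and 26.5 and 27.4 with alpha-amanitin, and Ubfd1 lay between 52.7 and 88.7 in all libraries.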

How the data were processed

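RNA of 9 embryo libraries was prepared with RNeasy Micro and TruSeq kits, per the labels' protocols. The authors deposited 1 table of FPKM values per library, in the layout of Cufflinks per the file headers, with confidence bounds and a status for each value. Per the submitters' processing notes the build was mm10 and tools of the series included BWA, Picard, Cufflinks, Trimmomatic and SAMtools, with no roles given. The sources used here do not name the RNA-seq aligner, its annotation release or the use of strand.

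The tables used here carry no counts, and the read depth is unknown. As a relative measure, the median distance from an FPKM to its bounds, over 7494 genes, was in wild type 18.7% to 19.4% of its size, 21.5% and 24.4% with alpha-amanitin, 11.9% and 14.8% in controls and 13.0% and 14.3% with Kdm5a+b morpholinos. All 35 members had status OK in every library. Of these, 10 were listed at 0 in 1 or more libraries and 2 had a value above the upper bound in 1 or more libraries.

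Log2(FPKM + 1) was tested with limma 3.58.1 (R 4.3.3), with 13137 genes at 1 FPKM or more in at least 2 libraries. It used a model of group alone over 9 libraries (5 residual degrees of freedom) and eBayes with a trend. Tests were two-sided, with Benjamini-Hochberg adjustment over all genes tested and a threshold of 0.05. A log2 change is on the log2(FPKM + 1) scale and understates the change of low genes. The code was tested on simulated data. Whether replicates were separate embryo collections is not in the labels, so the p-values reflect only the spread among libraries, part of which may be technical. An exact two-sided permutation test of 2 libraries against 2 cannot go below p = 0.333, so calls rest on the model.

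Members, lists and comparisons were chosen with earlier results of these data known. Values in every library are given for the 5 most abundant cytosolic and mitochondrial members, the members called with alpha-amanitin and the 4 with the smallest unadjusted p in each other comparison; up to 3 genes were named per related list, by size of change among those called. Some genes of these lists are not reported here. Mars, Gars, Fars2 and others beyond this rule were named after their values were seen. Transcripts were compared with BLAST 2.17.0 in GENCODE M21 (GRCm38, which is mm10). Alternatives were a pseudocount of 0.1, no filter, quantile normalization, TPM, a replicate block, eBayes without trend, only the groups compared, and leaving out each library.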

Additional observations from a re-analysis of the deposited data

How the results depend on the processing

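Of the alpha-amanitin calls, Rars and Hars held under every alternative run. The count of synthetase genes that fell, 8 as reported, was 10 with a pseudocount of 0.1, 9 with TPM, 8 with eBayes without trend, 4 with no filter, 2 with quantile normalization, 5 with the replicate block, 3 with only the groups compared, and 5 to 8 without single libraries. The cytosolic count, also 8, was 4 with no filter, 2 with quantile normalization, 4 with the replicate block, 3 with only the groups compared and 5 to 8 without single libraries. The mitochondrial count, 0 as reported, was 2 with a pseudocount of 0.1, 2 with TPM, 1 with the replicate block and 1 with eBayes without trend. The count that rose, 1 as reported, was 0 with no filter, 3 with quantile normalization, 0 with the replicate block, 0 with eBayes without trend, and 0 to 1 without single libraries. The median log2 change, -0.97 as reported, was -1.49 with a pseudocount of 0.1, -0.25 with quantile normalization, -1.32 with TPM and -1.14 to -0.61 without single libraries. Direction under each alternative was followed only for the called members and for Mars, Hars2, Mars2, Fars2, Gars, Lars2 and Eprs. Among these it changed, without a call, in Eprs (0.046 with quantile normalization), Mars (0.32 without alpha-amanitin replicate 1) and Lars2 (0.015 with TPM). Other tested members also changed direction with quantile normalization, since the median over cytosolic members moved from -0.97 to 0.05. Mars gained a call, at -3.91, without alpha-amanitin replicate 2. No filter tests more genes and the groups compared alone leave fewer libraries; the cause of the other shifts was not tested. In the other 2 comparisons no member was called under any of these settings. Same-numbered libraries of different groups did not deviate together (r between -0.0477 and 0.041). In groups of 2 the deviations mirror each other, so these values are few and cannot exclude a pairing by replicate number. With unknown depth and 2 libraries a group, members near 1 FPKM allow no firm statement.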
